A study of Mus musculus with 6 samples.

Results

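The 10 genes described here are regulators of mitochondrial biogenesis, namely Ppargc1a, Ppargc1b, Pprc1, Esrra, Esrrb, Esrrg, Nrf1, Tfam, Tfb1m and Tfb2m. They were chosen by name out of 21851 protein-coding genes of GENCODE on mm10, and open chromatin was read from the peaks whose summit lay from 50 kb before to 50 kb after each gene. After peaks of the 6 libraries were merged, these windows held 264 of the 194496 regions of the series. A promoter peak was a peak with its summit within 1 kb of a coding start site.

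The open chromatin of cultured mouse adipocytes was mapped by ATAC-seq, in which a transposase cuts accessible DNA, from 50000 nuclei per library. Each of the 3 groups had 2 libraries, described in the study as biological replicates for beige and white. All cells came from male wild type C57BL/6J mice aged 3 to 4 weeks and were collected after 7 days of differentiation. The beige and white cultures came from the stromal vascular fraction of inguinal fat, and the brown cultures from that of brown fat. The beige and brown media held 5 μM dexamethasone, 0.5 mM IBMX, 1 nM T3, 1 μM rosiglitazone and insulin. The white medium held 1 μM dexamethasone, 0.5 mM IBMX and insulin, without T3 and rosiglitazone. These were the induction media. In the study's methods the medium was then changed, keeping only insulin, T3 and rosiglitazone for beige and only insulin for white. The paper does not describe this step for brown. The labels give 5 μg/ml insulin for each medium, and the study's methods give other insulin concentrations. In beige against white the tissue of origin was the same and the media differed, in brown against beige the medium was the same and the tissue differed, and in brown against white tissue and medium cannot be told apart. The brown libraries are not described in the paper, and any other difference in how they were made cannot be told apart from their tissue. These are mixed primary cultures, so a difference in the share of differentiated cells and a difference per cell cannot be told apart.

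PGC-1 coactivators bind transcription factors and raise the output of nuclear genes for mitochondria. PGC-1α, encoded by Ppargc1a, is induced by cold and cAMP in brown fat, and PGC-1β (Ppargc1b) and PRC (Pprc1) are its relatives. Among their partners are the estrogen-related receptors (Esrra, Esrrb and Esrrg) and nuclear respiratory factor 1 (Nrf1), which binds promoters of respiratory genes. Tfam packages mitochondrial DNA and starts its transcription, Tfb2m melts the mitochondrial promoter, and Tfb1m methylates mitochondrial ribosomal RNA.

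Each library has 1 peak list, of 109143 to 127490 peaks. The MACS2 fold enrichment of a peak is relative to its own library, so it was turned into a percentile within that list, where 100 is the strongest peak. The −log10 q value only states how far a peak lies past the authors' threshold in its own library. With 2 libraries against 2, an exact two-sided permutation test can give no p below 0.333, so no difference was tested. A difference is described as present where the 2 libraries of a group do not overlap the 2 of the other. Of the marker genes, all 8 adipocyte genes, such as Adipoq and Fabp4, had a promoter peak in every library, as did 62.0% of all protein-coding genes. Of these 8, 0 ranked higher in beige than white, against 28.5% of all genes. The other way, 3 did so (Pparg, Fabp4 and Lpl, against 19.9%). In brown against beige, 5 ranked higher in brown (against 33.2%) and 0 in beige (against 17.4%). In brown against white, 3 ranked higher in brown (against 34.6%) and 0 in white (against 15.0%). Among the 6 brown adipocyte genes, the promoter of Ucp1 was open in brown 1 and brown 2 alone, at percentiles 9.12 and 4.23, and that of Zic1 in brown 1, brown 2 and beige 2. Cidea, Dio2, Ebf2 and Prdm16 were open in all 6. Cidea alone ranked higher in both beige than in both white libraries, and Prdm16 alone the other way (28.5% and 19.9% of all genes). The same held in brown against white. Cidea stood at 73.6 and 70.9 in beige, 45.7 and 63.7 in white, and 77.8 and 78.6 in brown. Prdm16, a regulator of brown fat identity, ranked highest in white (48.0 and 31.1, against 3.96 and 2.82 in beige and 15.2 and 11.3 in brown). All 6 libraries had promoter peaks at 2 of 6 macrophage genes, Adgre1 and Cd68, and none had one at Ptprc, Itgam and Csf1r. Cx3cr1 had one in both beige and both white libraries and in no brown library. Cd68 ranked higher in both white than in both beige libraries (against 19.9% of all genes). Adgre1 ranked higher in both beige than in both brown libraries (against 17.4%). All 6 libraries also had promoter peaks at 3 of 5 endothelial genes, and none at Cdh5 and Vwf. Those 3 endothelial promoters, of Pecam1, Kdr and Tek, ranked higher in both white than in both beige libraries, as did 19.9% of all genes. Of 5 progenitor genes 2 were open in all 6 libraries. Among these 5, Dpp4 and Dpt ranked higher in white than beige (against 19.9% of all genes) and 0 the other way (against 28.5%). Pdgfra ranked higher in brown than beige (against 33.2%) and than white (against 34.6%). Dpp4 ranked lower in brown than beige (against 17.4%) and than white (against 15.0%). Dpt had a promoter peak in both beige and both white libraries and in no brown library. The study's reporting summary gives fewer mapped reads for the beige than for the white libraries. The part of other cell types, of the degree of differentiation and of depth in the results was not tested.

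The sequences that the results turn on are given first. RefSeq promoters, from 250 bases before to 50 after a start site on GRCm38.p6, were found for 9 of the 10 genes, all but Ppargc1b. Consensus letters of 7 elements were searched on both strands, with no mismatch. These were the NRF1 element GCGCATGC, the ETS element CCGGAAGT bound by GABP, the ERR element TCAAGGTCA, the cAMP response element TGACGTCA, the YY1 element AAGATGGC, the SP/KLF element GGGGCGGGG and the PPAR DR1, which is AGGTCA, any base and AGGTCA. The ERR element ends in the same AGGTCA. Among the 14 promoters of the members, Esrra and Tfb2m each held 1 NRF1 element, present in 2.71% of all 32817 promoters, and Tfam held 1 ETS element, present in 3.89%. The other elements had no match in these windows. The Ppargc1a promoter among them is that of the upstream start site, so the promoter at its proximal start was not searched here. They were present in 0.424% (ERR), 0.0396% (DR1), 1.79% (CRE), 2.74% (YY1) and 11.4% (SP/KLF) of all promoters. Capitals mark the match in these 3 promoters, written 5′ to 3′ on the gene's strand. The promoters are at chr19:6921759-6922058 for Esrra, chr1:179546227-179546526 for Tfb2m and chr10:71237995-71238294 for Tfam, all on the minus strand.
Esrra promoter: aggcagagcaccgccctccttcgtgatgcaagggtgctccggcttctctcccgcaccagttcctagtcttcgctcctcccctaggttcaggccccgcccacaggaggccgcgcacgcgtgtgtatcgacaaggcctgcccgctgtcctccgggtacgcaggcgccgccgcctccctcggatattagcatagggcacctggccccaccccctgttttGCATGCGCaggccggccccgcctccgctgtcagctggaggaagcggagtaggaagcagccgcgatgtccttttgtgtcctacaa
Tfb2m promoter: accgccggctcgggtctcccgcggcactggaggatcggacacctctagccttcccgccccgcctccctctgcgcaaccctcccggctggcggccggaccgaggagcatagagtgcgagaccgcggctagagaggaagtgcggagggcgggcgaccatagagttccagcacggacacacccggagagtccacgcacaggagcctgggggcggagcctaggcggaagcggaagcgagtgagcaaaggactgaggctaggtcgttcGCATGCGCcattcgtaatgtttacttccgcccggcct
Tfam promoter: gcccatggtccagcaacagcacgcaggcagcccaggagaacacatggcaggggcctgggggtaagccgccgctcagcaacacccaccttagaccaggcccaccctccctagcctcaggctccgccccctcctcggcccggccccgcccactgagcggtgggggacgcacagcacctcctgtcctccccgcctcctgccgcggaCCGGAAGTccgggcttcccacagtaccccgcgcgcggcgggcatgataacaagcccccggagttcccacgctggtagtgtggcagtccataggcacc
Counted from the RefSeq start site, the NRF1 element lay from -34 to -27 in Esrra and from 13 to 20 in Tfb2m. The ETS element of Tfam lay from -47 to -40 of its RefSeq start, 71238044. That start is downstream of the GENCODE start, 71238280, from which other Tfam distances here are counted. The ETS element is thus downstream of the GENCODE start. A match is a description of letters and was not tested as a binding site.

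The windows that follow show Ppargc1a, whose promoter ranked lower in both white libraries than in the other 4, and 1 region of the Pprc1 window. Each holds 201 bases of the plus strand of GRCm38 around the strongest summit, with the 11 bases centred on the summit in capitals. They are the promoter peak (chr5:51553793-51553993), the peak at the upstream start site (chr5:51567818-51568018), an intronic region 55.6 kb into the gene (chr5:51498219-51498419), an intergenic region 54.0 kb upstream (chr5:51607790-51607990) and a region 39.6 kb past the Pprc1 start (chr19:46096006-46096206).
Ppargc1a promoter peak: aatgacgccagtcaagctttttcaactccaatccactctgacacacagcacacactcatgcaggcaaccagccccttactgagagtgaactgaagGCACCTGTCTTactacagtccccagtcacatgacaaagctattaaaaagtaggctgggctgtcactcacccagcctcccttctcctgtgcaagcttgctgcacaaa
Ppargc1a upstream start: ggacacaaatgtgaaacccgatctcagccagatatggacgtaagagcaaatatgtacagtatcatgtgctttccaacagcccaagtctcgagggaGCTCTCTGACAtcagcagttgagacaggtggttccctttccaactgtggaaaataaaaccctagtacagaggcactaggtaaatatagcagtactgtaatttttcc
Ppargc1a intron: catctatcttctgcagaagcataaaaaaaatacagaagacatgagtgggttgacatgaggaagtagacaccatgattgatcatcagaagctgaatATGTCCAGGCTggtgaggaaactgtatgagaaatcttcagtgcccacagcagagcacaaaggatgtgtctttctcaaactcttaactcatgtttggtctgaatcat
Ppargc1a upstream region: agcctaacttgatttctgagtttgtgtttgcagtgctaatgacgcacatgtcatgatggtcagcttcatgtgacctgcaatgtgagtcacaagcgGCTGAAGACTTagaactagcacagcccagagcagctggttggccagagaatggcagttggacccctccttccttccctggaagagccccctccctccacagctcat
Pprc1 downstream region: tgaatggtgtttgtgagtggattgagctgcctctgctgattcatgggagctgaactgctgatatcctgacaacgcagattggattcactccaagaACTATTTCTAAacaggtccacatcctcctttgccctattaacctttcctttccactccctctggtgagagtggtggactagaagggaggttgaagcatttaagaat
None of the 7 elements was found in these 5 windows. The windows of the other member regions open in beige and brown and in no white library are not printed. Among those, the window of the Esrrg region held 1 SP/KLF element, and those at Ppargc1b and Esrrb held none. The first window covers part of the Ppargc1a promoter peak (chr5:51553658-51554118), and the rest of that peak was not searched. Over all 264 windows of the members, the ERR element was found in 4 (1.52%, against 0.345% of the 194496 windows of the series), the NRF1 element in 4 (1.52% against 0.669%), the SP/KLF element in 8 (3.03% against 2.26%), the YY1 element in 5 (1.89% against 1.44%), the ETS element in 3 (1.14% against 0.817%), the CRE in 1 (0.379% against 0.656%) and the DR1 in 0 (against 0.0566%).

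The base composition of the promoters also differed between members. The Ppargc1a promoter of the table, which lies at the upstream start site, had 48.7% GC and an observed over expected CpG ratio of 0.282, below the medians over all promoters of 52.7% and 0.383. The Nrf1 promoter at the first start site had 77.0% GC and a ratio of 0.971, and Tfb2m had 67.3% and 0.942. The values were 70.3% and 0.586 for Tfam, 60.0% and 0.623 for Tfb1m, 66.0% and 0.781 for Esrra. Pprc1 had a GC share below the median and a ratio of 0.747. The values of Esrrb were 60.0% and 0.266 at the first start site and 55.3% and 0.318 at the second. The ratio was thus below that of Ppargc1a at the first and above it at the second, where the Esrrb peak lay. The 4 promoters of Esrrg had 44.7 to 61.3% GC and ratios of 0.707 to 1.07, and the inner promoter of Nrf1 had 46.3% and 0.131.

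All 10 members had a promoter peak in all 6 libraries, as did 13547 of 21851 protein-coding genes (62.0%). The promoters of Tfb1m, Tfb2m and Tfam were the strongest by mean percentile. Ordered by the mean percentile over the 6 libraries, Tfb1m came first (99.0, range 97.2 to 99.9), then Tfb2m (98.2, 96.8 to 99.3), Tfam (97.2, 94.1 to 99.0), Pprc1 (94.2, 87.2 to 97.5), Nrf1 (90.5, 87.9 to 93.9), Esrra (86.7, 71.2 to 93.7), Esrrg (62.4, 41.3 to 82.3), Ppargc1b (59.3, 53.5 to 66.3), Esrrb (50.2, 18.7 to 63.7) and Ppargc1a (45.8, 24.9 to 67.9). Each neighbouring pair in this order overlapped in range. The median strongest promoter peak over all genes stood between 85.8 and 90.8. In every library 4 members were above that median (Pprc1, Tfam, Tfb1m and Tfb2m) and 4 were below it (Ppargc1a, Ppargc1b, Esrrb and Esrrg), while Nrf1 and Esrra lay on either side. Of the PGC-1 family, the Pprc1 promoter thus ranked above the Ppargc1a and Ppargc1b promoters in each of the 6 lists.

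**Figure D1:**
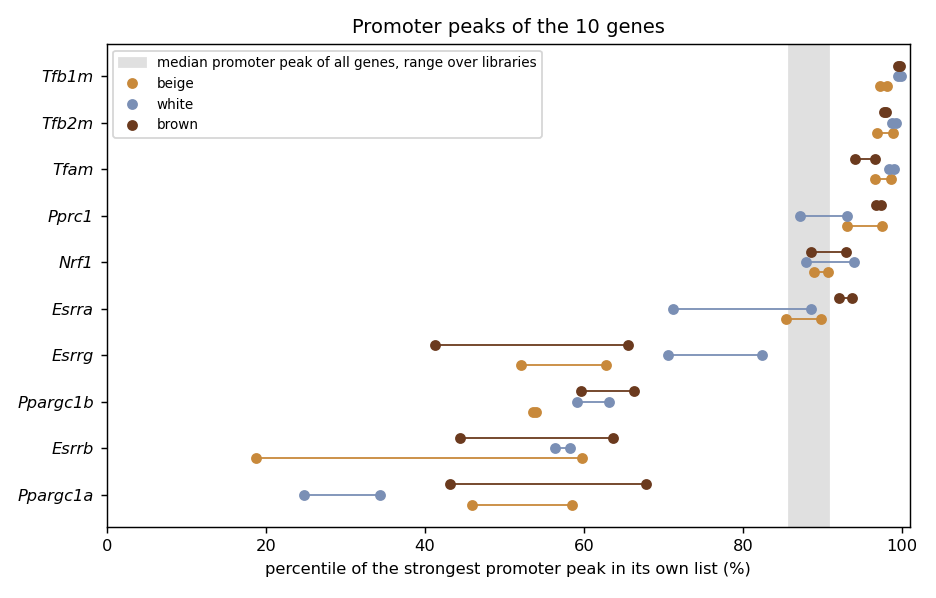
Percentile of the strongest promoter peak of each gene within the peak list of its library; each point is 1 library, lines join the 2 libraries of a group, and the grey band spans the medians over all genes, 85.8 to 90.8. The points of Tfb1m, Tfb2m and Tfam lie above 94, and those of Ppargc1a reach from 24.9 in white to 67.9 in brown.

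In beige against white, the strongest promoter peak ranked higher in both beige libraries for 2 members, Ppargc1a and Pprc1, while 28.5% of all genes did so. It ranked higher in both white libraries for 3, Ppargc1b, Esrrg and Tfb1m, against 19.9% of all genes. In brown against beige, 3 members ranked higher in brown (Ppargc1b, Esrra and Tfb1m, against 33.2%) and 0 in beige (against 17.4%). In brown against white, 3 ranked higher in brown (Ppargc1a, Pprc1 and Esrra, against 34.6%) and 3 in white (Esrrg, Tfam and Tfb2m, against 15.0%). With 10 members, each of these counts lies within 2 genes of the share over all genes. The comparisons share libraries, and their counts are not independent of each other.

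The Ppargc1a gene lies at chr5:51454250-51567726 on the minus strand. Its promoter peak, at the proximal start site 51553891, stood at percentiles 58.5 and 45.9 in beige, 34.4 and 24.9 in white, and 67.9 and 43.2 in brown. Both white libraries were below all beige and brown libraries, which overlapped each other. The mean ± SD (n = 2) was 52.2 ± 8.88 in beige, 29.7 ± 6.76 in white and 55.5 ± 17.5 in brown. The −log10 q values were 31.3 and 22.8 in beige, 8.30 and 8.81 in white, and 38.5 and 12.5 in brown. Ranked by −log10 q instead of fold, the percentiles were 76.4 and 66.3 in beige, 45.9 and 48.6 in white, and 78.5 and 58.4 in brown, so the white libraries remained lowest. Among the strongest promoter peaks of all genes, Ppargc1a ranked low in each list, at percentiles 15.4 and 10.5 in beige, 7.18 and 5.27 in white, and 22.0 and 9.39 in brown.

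A second coding start site of Ppargc1a lies 13.8 kb upstream, at 51567726, and is annotated outside the basic set used for promoters. The peak there stood at percentiles 54.5 and 66.6 in beige, 43.8 and 37.1 in white, and 58.4 and 67.7 in brown. The order of the groups was that of the proximal promoter, with both white libraries below the other 4. A peak 1.2 kb past the proximal start stood at percentiles 76.8 and 61.4 in beige, 86.3 and 76.7 in white, and 68.8 and 77.2 in brown, where the groups overlapped. A weaker peak 1.6 kb past the start was highest in white, with 44.8 and 56.7 against 35.7 and 28.8 in beige and 30.0 and 18.6 in brown. The strongest peak of the window lay 41.9 kb upstream, with 79.2 and 84.5 in beige, 87.5 and 93.8 in white, and 82.8 and 87.7 in brown. White was thus lowest at both start sites but not at every region nearby.

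Of 23 regions in the Ppargc1a window, 9 were open in all 6 libraries and 9 in 1 library. Presence differed between groups at 2, and both were open in beige and brown and in no white library. The intronic region (chr5:51498091-51498470) had −log10 q values of 3.96 and 2.94 in beige and 5.52 and 5.74 in brown. The nearest white peak was 10340 bp away. The upstream region (chr5:51607738-51608270) had 7.76 and 2.94 in beige and 17.2 and 14.7 in brown, with the nearest white peak 11545 bp away. Beige 2 had the lowest −log10 q of the beige and brown libraries at both, though it passed a q of 0.01 as well as the authors' 0.05. Its percentile was 14.1 at each, against 25.6 and 51.1 in beige 1, 36.6 and 70.4 in brown 1 and 46.4 and 72.5 in brown 2. At both regions the brown libraries ranked above the beige libraries.

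**Figure D2:**
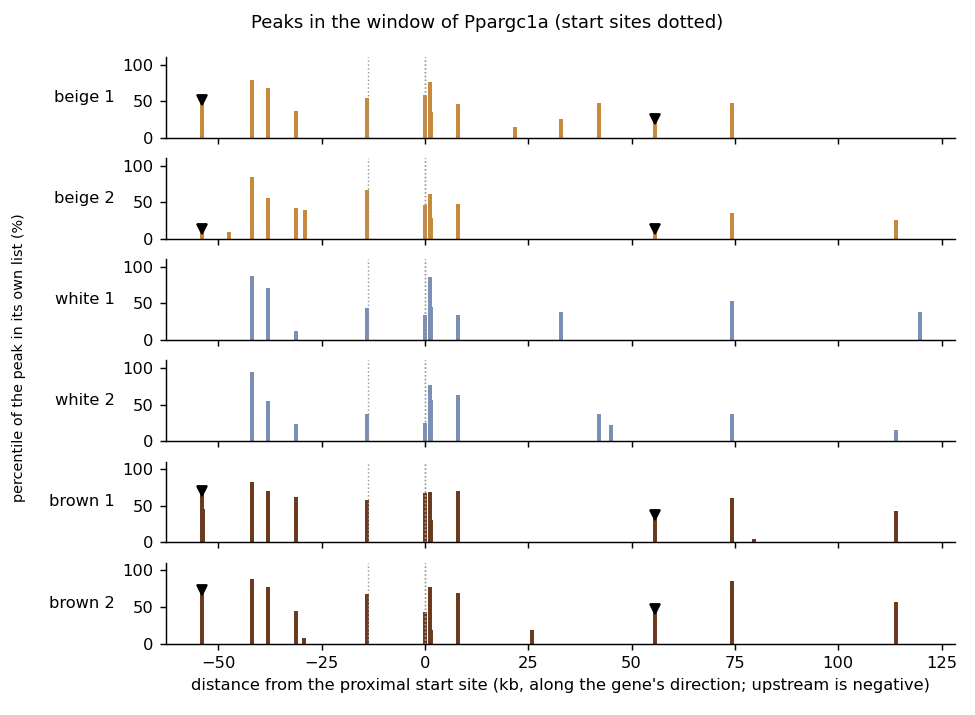
Percentile of each peak in its own list against its distance from the proximal start site of Ppargc1a in kb, 1 panel per library; upstream is negative, dotted lines are coding start sites and triangles mark regions open in beige and brown and in no white library. The 2 triangles, at -54.0 and 55.6 kb, have no peak in the white panels.

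Among the 13547 genes with a promoter peak in all 6 libraries, the 5 whose percentiles were nearest to those of Ppargc1a were Ankrd34b, Stat4, Shisa8, Kcng3 and Adora2b, which encodes an adenosine receptor that raises cAMP. The Euclidean distance over the 6 libraries was 15.8 for Ankrd34b and 20.8 for Adora2b. Adora2b stood at 50.2 and 47.7 in beige, 35.0 and 19.4 in white, and 54.6 and 55.5 in brown. Stat4, a signal transducer of interleukins, stood at 44.8 and 50.7 in beige, 33.7 and 18.8 in white, and 72.0 and 37.1 in brown. The likeness covers 6 values that share their lists, and is a description.

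The Pprc1 promoter (the gene is at chr19:46044886-46072915) stood at 97.5 and 93.1 in beige, 93.1 and 87.2 in white, and 96.7 and 97.3 in brown. The lower beige library (93.09) barely exceeded the higher white library (93.07), and the order was lost when the lists were cut to equal length. In brown both libraries were above both white libraries. Its window is dense in genes, and 9 of its 23 regions were open in all 6 libraries. Of those 9, 5 ranked higher in both beige than in both white libraries (24.9% of all regions did) and 0 the other way (22.6%), including the Ldb1 promoter (83.7 and 85.3 in beige, 77.3 and 67.4 in white). One region 39.6 kb past the start, nearest to Nolc1, was open in beige (−log10 q of 5.40 and 4.94) and brown (4.11 and 4.35) and in no white library. Another, 52.2 kb past the start and 23.2 kb before Elovl3, was open in both brown libraries (4.16 and 12.9), in beige 2 (3.86) and in no white library. Elovl3 encodes a fatty acid elongase that is strongly induced in brown fat by cold.

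At Ppargc1b the promoter did not follow that of Ppargc1a, while 3 other regions were open in beige and brown and not in white. The promoter peak stood at 53.5 and 53.9 in beige, 59.2 and 63.1 in white, and 59.6 and 66.3 in brown. Both beige libraries were below the other 4, and white and brown overlapped. Ranked by −log10 q, the groups overlapped, with 84.2 and 86.0 in beige, 83.2 and 84.9 in white, and 82.3 and 85.3 in brown, so the order depended on the measure.

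Of 37 regions in the Ppargc1b window, 14 were open in all 6 libraries, and the 3 open in beige and brown had no peak in white. The strongest lay 37.9 kb upstream between genes (chr18:61437845-61438525), with −log10 q values of 19.1 and 19.1 in beige and 37.5 and 42.5 in brown. Its percentiles were 56.6 and 50.7 in beige and 72.1 and 82.3 in brown, and the nearest white peak was 1697 bp away. A second lay in an intron 16.7 kb past the start (chr18:61383524-61383936), with 19.6 and 30.3 in beige and 13.4 and 20.4 in brown. The third, 41.7 kb past the start, had 12.0 and 16.2 in beige and 5.98 and 5.10 in brown. All 12 of these values were over 5, whereas the lowest at Ppargc1a was 2.94. A region 492 bp past the start was open in beige (9.06 and 11.9) and white (10.1 and 22.4) and in no brown library, but brown peaks ended 17 and 32 bp from it. The beige windows held 28 and 30 peaks, the white windows 22 and 24, and the brown windows 24 and 23.

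**Figure D3:**
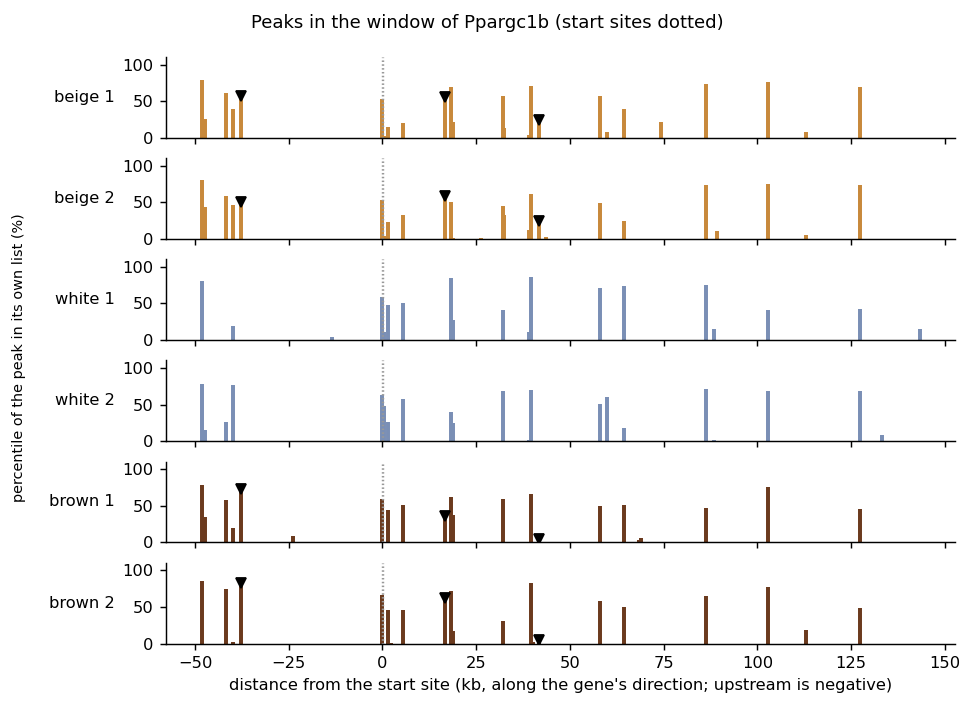
Percentile of each peak in its own list against its distance from the Ppargc1b start site in kb, 1 panel per library; upstream is negative, dotted lines are coding start sites and triangles mark regions open in beige and brown and in no white library. The 3 triangles, at -37.9, 16.7 and 41.7 kb, have no peak in the white panels.

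Of the estrogen-related receptors, Esrra had the strongest promoter in all libraries but white 2, where Esrrg ranked higher. Its peak stood at 89.8 and 85.4 in beige, 88.5 and 71.2 in white, and 92.0 and 93.7 in brown (gene at chr19:6910977-6921813). Both brown libraries were above the other 4, and beige and white overlapped, the lowest value being that of white 2. The regions of its window that differed between groups lay near other genes. A peak in the Catsperz promoter, 2.8 kb upstream of Esrra, was called in both beige libraries (−log10 q of 14.1 and 23.4) and white 2 (18.2), and in no brown library. At the far end of the window near Ccdc88b, a region open in beige alone had white and brown peaks 8 to 138 bp away. The nearest beige and brown peaks to a region there open in white alone were 194 to 234 bp away.

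The Esrrb promoter (the gene is at chr12:86361117-86521628) was weak, with −log10 q from 5.06 to 18.4 over the libraries. Its percentiles were 59.8 and 18.7 in beige, 56.3 and 58.3 in white, and 63.7 and 44.5 in brown, so all groups overlapped. The peak was at the second coding start site, and the first, 60.5 kb upstream, had none in any library. An intronic region 77.4 kb past the second start was open in beige (2.05 and 10.3) and brown (8.09 and 3.36) and in no white library. A region 112.9 kb past it was open in brown alone (4.02 and 3.05), at percentiles 21.2 and 19.0.

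Esrrg is the longest member, 606 kb, at chr1:187608791-188214885. Its strongest promoter peak lay at a start site 388.8 kb inside the gene and stood at 62.8 and 52.1 in beige, 70.6 and 82.3 in white, and 41.3 and 65.6 in brown. Both white libraries were above the other 4. At the first start site the peak stood at 34.7 and 28.0 in beige, 30.2 and 44.7 in white, and 35.8 and 33.1 in brown, where all groups overlapped. The higher rank in white was thus seen at 1 of the start sites. Of 61 regions, 15 were open in all 6 libraries and 23 in 1 library. An intronic region 234.9 kb before the inner start was open in beige (−log10 q of 5.06 and 4.27) and brown (7.51 and 5.59) and in no white library. Another, 154.3 kb before it, was open in brown alone (5.52 and 4.35), and one 347.7 kb before it in white alone (4.83 and 7.40). A further intronic region, 86.9 kb before the inner start, was among the strongest peaks of every list, at 98.8 and 98.2 in beige, 99.9 and 99.5 in white, and 99.9 and 99.1 in brown. It was chosen after its values were seen.

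Nrf1 (chr6:30047988-30153458) did not differ between groups at its promoter. The peak stood at 89.0 and 90.6 in beige, 93.9 and 87.9 in white, and 88.6 and 92.9 in brown. It lay at the first group of start sites, and the inner coding start sites 28.3 and 41.9 kb downstream had no promoter peak in any library. Of 22 regions 4 were open in all 6 libraries (18.2%), the lowest share among the members. A region 26.1 kb upstream was open in brown alone (−log10 q of 4.80 and 4.72). An intronic region 34.0 kb past the start was open in beige alone (5.35 and 5.43), with a white peak 142 bp away. A region over an exon 54.2 kb past the start was open in brown (5.52 and 5.03) and beige 1 (5.40), and in no white library.

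The promoters of Tfam, Tfb1m and Tfb2m stood near the top of every list, with differences of a few percentiles. Tfam (chr10:71225464-71238280) stood at 98.6 and 96.6 in beige, 98.3 and 99.0 in white, and 94.1 and 96.7 in brown. Both white libraries were above both brown libraries, and beige overlapped each. Tfb2m (chr1:179528055-179546267) stood at 98.9 and 96.8 in beige, 99.3 and 98.7 in white, and 97.8 and 98.0 in brown, again with white above brown. Tfb1m (chr17:3519256-3557781) stood at 97.2 and 98.1 in beige, 99.9 and 99.5 in white, and 99.8 and 99.5 in brown, with both beige libraries lowest. At 97 to 100 a step of 1 percentile is 1091 to 1275 peaks of a list.

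The windows of these 3 genes held 6 regions that differed between groups, of which 5 were open in beige alone. At the Tfb1m promoter a region 453 bp upstream was called in beige alone (−log10 q of 5.72 and 12.6), but peaks of the 4 other libraries ended 14 to 26 bp from it. Near Tfb2m, an intronic region of Smyd3, a histone methyltransferase gene, was open in beige alone (7.39 and 31.9), at percentiles 43.8 and 81.7. Its nearest peaks in the other 4 libraries were 2639 to 14190 bp away. A weaker region in an intron of Cnst was also open in beige alone (4.45 and 4.87). In the Tfam window, the regions open in beige alone were introns of 1700113B09Rik (6.83 and 4.25) and of Ube2d1, a ubiquitin-conjugating enzyme gene (4.30 and 4.24). A region 28.4 kb past the Tfam start was open in brown (8.90 and 1.81) and white 1 (5.69) and in no beige library.

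**Figure D4:**
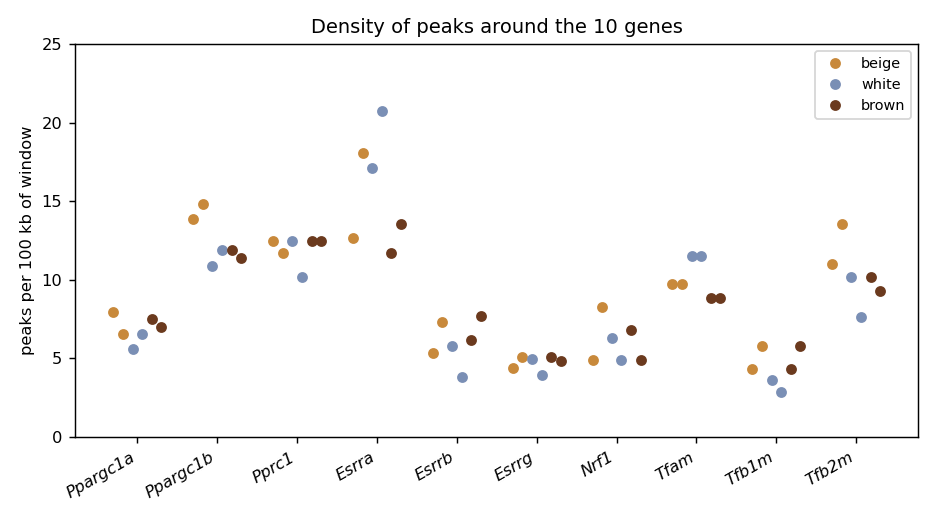
Peaks per 100 kb of window for each gene, 1 point per library. Densities run from 2.89 at Tfb1m in white 2 to 20.8 at Esrra in white 2, and the order of the groups differs from gene to gene.

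Across all members, the windows held 160 and 186 peaks in beige, 162 and 148 in white, and 163 and 162 in brown, without separation of the groups. Of the 264 regions, 85 (32.2%, 95% Clopper-Pearson interval 26.6 to 38.2%) were open in all 6 libraries, against 30.2% of all regions, and 90 (34.1%) were open in 1 library, against 37.2%. The intervals cover counting error only. Most regions, 148, lay in introns, 67 between genes, 35 in promoters and 14 over exons. For 172 (65.2%) the nearest coding start site was the member's own, and the others were closer to a neighbouring gene.

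Of 234 member regions with a peak in beige or white, 21 (8.97%, interval 5.64 to 13.4%) were open in both beige and no white library, against 5.14% of all regions. Only 4 (1.71%, 0.468 to 4.32%) were open in both white and no beige library, against 2.27%. Of 227 in brown or white, 16 (7.05%, 4.08 to 11.2%) were open in brown and not white, against 3.37%, and 6 (2.64%, 0.976 to 5.66%) in white and not brown, against 3.99%. Of 224 in brown or beige, 6 (2.68%, 0.989 to 5.74%) were open in brown and not beige, against 1.85%, and 14 (6.25%, 3.46 to 10.3%) in beige and not brown, against 5.71%. The shares open in beige or brown and not in white were above those of all regions, and the others were close to them or below. Neighbouring regions are not independent, and the intervals treat them as if they were. Leaving out either library of the open group raised each of the 6 shares by over 1.5 times, since 1 peak then suffices. For beige and not white the share was 23.7% without beige 1 and 15.3% without beige 2. Without white 1 it was 15.7%, and the share in brown and not white was 14.0%. Without beige 2 the share in brown and not beige was 6.57%.

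Counting all 3 groups together, 8 member regions (3.03%) were open in beige and brown and in no white library, against 1.25% of all regions. They were 2 at Ppargc1a, 3 at Ppargc1b and 1 each at Pprc1, Esrrb and Esrrg, and 0 at Esrra, Nrf1, Tfam, Tfb1m and Tfb2m. In beige alone there were 10 (3.79%, against 1.94%), in brown alone 4 (1.52%, against 0.878%), in white alone 3 (1.14%, against 1.22%), in beige and white 2 (0.758%, against 1.16%) and in white and brown 0 (against 0.243%). Many of the differing regions were weak. All libraries with the peak passed a q of 1e-05 at 8 of the 21 regions open in beige and not white, at 4 of the 16 in brown and not white, and at 7 of the 14 in beige and not brown. They did so at 1 of the 6 in white and not brown, at 0 of the 4 in white and not beige and at 0 of the 6 in brown and not beige.

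**Figure D5:**
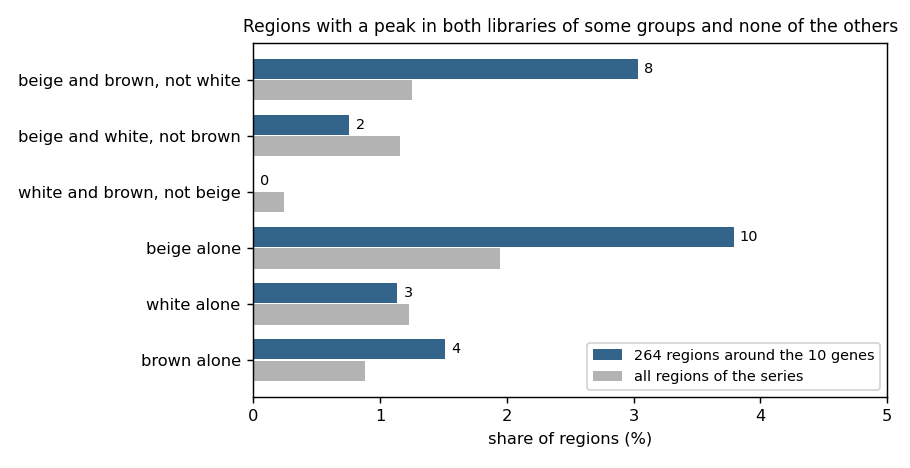
Share of regions, in percent, open in both libraries of the named groups and in no library of the others, for the 264 regions around the 10 genes (dark, with their number) and for all regions of the series (grey). The share in beige and brown and not white was 3.03% around the genes and 1.25% over all regions.

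Where a member region had a peak in all 4 libraries of a comparison, its rank was also compared. In brown against beige, more of them ranked higher in brown and fewer in beige than over all regions. Of 89 such regions in beige and white, 21 ranked higher in both beige (23.6%, against 24.9% of all regions) and 19 in both white libraries (21.3%, against 22.6%). Of 104 in brown and beige, 31 ranked higher in brown (29.8%, against 23.4%) and 18 in beige (17.3%, against 27.1%). Of 87 in brown and white, 21 ranked higher in brown (24.1%, against 22.4%) and 14 in white (16.1%, against 24.1%). In the Ppargc1a window 6 of 11 regions ranked higher in brown than in beige and 0 the other way.

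Other genes of the pathway were read from a list of 24 upstream and partner factors, of which 23 had a promoter peak in all 6 libraries. Examples are Atf2 and Creb1, which bind cAMP response elements, Crtc1, a coactivator of Creb1, and the Crtc2 gene. Creb1 stood at 91.2 and 92.7 in beige, 95.3 and 95.4 in white, and 97.0 and 97.3 in brown. Crtc1 stood at 98.5 and 98.3 in beige, 94.0 and 93.6 in white, and 98.9 and 98.1 in brown. The exception was Perm1, a regulator that acts with PGC-1 and ERR factors in muscle. It stood at 49.4 and 56.0 in beige, 6.20 in white 1 and 69.5 and 59.5 in brown, and had no promoter peak in white 2. Of the 24, 7 ranked higher in beige than white and 6 the other way, 11 higher in brown than beige and 1 the other way, and 9 higher in brown than white and 0 the other way. The shares over all genes, in the same order, were 28.5%, 19.9%, 33.2%, 17.4%, 34.6% and 15.0%. The list's median percentile was 78.7 to 89.7 over the libraries, against 85.8 to 90.8 for all genes.

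A list of 20 genes for mitochondrial DNA upkeep and transcription had 18 with a promoter peak in all 6 libraries. Examples are Dguok, a mitochondrial deoxyguanosine kinase, the mitochondrial protease Lonp1, the nuclease Mgme1 and Mterf2. The exceptions were Mterf1a, with a peak in white 2 alone, and Mterf1b, with one in beige 1 and white 2. They are near-identical copies, between which reads may not be placed with certainty. Of the 20, 7 ranked higher in beige than white and 2 the other way, 7 higher in brown than beige and 4 the other way, and 9 higher in brown than white and 2 the other way, to be read against the same shares over all genes. The list's median percentile was 91.7 to 95.7 over the libraries, above that of all genes in each.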

How the data were processed

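ATAC-seq peak lists of 2 beige, 2 white and 2 brown libraries were used. Per the labels and the paper, the authors aligned reads to mm10 with BWA and called peaks per library with MACS2 at a q value under 0.05. The deposited fold enrichment is a ratio of pileup to local background within 1 library, and their −log10 q value belongs to each summit. Neither was compared between libraries except as a percentile. The lists hold no read counts. The paper's reporting summary gives read totals for the beige and white libraries, with fewer mapped reads in both beige than in both white libraries. None were found for brown, and precision is given by the 109143 to 127490 peaks of a list.

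An interval with several summits entered 1 time, by its summit of highest −log10 q. Peaks that overlapped or touched were merged into regions over the 6 libraries. Start sites came from coding transcripts of the GENCODE M21 basic set. Regions were named where presence differed between groups, up to 3 per gene with the highest lowest −log10 q. Pathway genes were named where a promoter peak was missing, with up to 4 examples per list in alphabetical order. Summit windows were 100 bases to each side, read from GRCm38.p6 with pysam 0.24.0. Computations used Python 3.11.15 with scipy 1.17.1, pandas 2.3.3, numpy 2.4.6 and matplotlib 3.10.9, and the steps were tested on simulated data. Alternatives covered q values, list length, overlap, windows, start sites, ranking and each library left out. The genes and lists were chosen with earlier results of these data known.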

Additional observations from a re-analysis of the deposited data

How the results depend on the processing

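No paired analysis was possible because none of the results comes from a test. The labels give replicate numbers and tie none of them across groups. All 10 members kept a promoter peak in every library under each of the 13 other settings, of which counting every summit of an interval was chosen after seeing the data. Only the promoter within 500 bp, the stricter q values and the equally long lists could have lowered this count. The other settings could only keep or add promoter peaks. The share of member regions open in all libraries was 20.8% where peaks had to cover at least 50% of a region, and counts of regions were otherwise within the counting interval for q values, list length and window size. With equally long lists the share in beige and not white fell to 6.44%, closer to the 5.14% of all regions in the full lists. That in brown and not white was 8.21%, against 3.37% of all regions in the full lists. With equally long lists, 1 member (Ppargc1a) ranked higher in beige than white. Ranked by −log10 q, 2 members (Nrf1 and Tfb2m) ranked higher in beige than brown, and ranked among promoter peaks 1 (Tfam) did.

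With 1 library left out, a peak in a single library suffices for its group, so classes grow by construction. Over the libraries left out, the share in beige and not white ran from 8.97 to 23.7% (highest without beige 1, 15.3% without beige 2, 15.7% without white 1), in white and not beige from 1.71 to 13.0% (without white 2), in brown and not beige from 2.68 to 11.0% (without brown 1), in beige and not brown from 6.25 to 18.8% (without beige 1), in brown and not white from 7.05 to 17.8% (without brown 1) and in white and not brown from 2.64 to 16.0% (without white 2). Members ranked higher numbered 2 to 4 in beige than white, 3 to 6 in white than beige, 3 to 6 in brown than beige, 0 to 3 in beige than brown, 3 to 4 in brown than white and 3 to 5 in white than brown. Leaving out a library can only keep or add such an order, so these counts could not fall below those of the full set. For the same reason Ppargc1a had to stay higher in beige and in brown than in white in each of these. Under each other ranking, which could have changed the order, it stayed higher as well. Mapped reads were fewer in beige than in white, and the part of depth in the calling of weak peaks was not tested.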
